A study of Mus musculus with 16 samples.

Results

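The natriuretic peptide system was followed through 8 genes in the mouse left ventricle: the peptide genes Nppa, Nppb and Nppc, the receptor genes Npr1, Npr2 and Npr3, and the protease genes Corin and Furin. They were chosen by symbol, and their Ensembl IDs matched 8 of 57186 gene rows in the count table. Of these, 7 passed the filter on low counts and were tested among 15206 genes; Nppc did not pass. RNA from the left ventricle of 16 mice of the strain C57/BL6N was sequenced, 4 in each of 4 groups: wild type (WT) after sham surgery, WT after transverse aortic constriction (TAC), the cardiomyocyte-specific TFEB knockout (labelled cKO-TFEB, here cKO) after sham surgery, and cKO after TAC. In TAC a band around the aortic arch raises the pressure against which the left ventricle pumps, and TFEB is best known as an activator of genes of the lysosome. Age, sex, the time after surgery, the Cre driver and whether the WT mice carried Cre or floxed alleles are not given in the sources used here, and a knockout in cardiomyocytes leaves Tfeb in the other cells of the tissue.

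Natriuretic peptides are hormones that the heart releases when its walls are stretched. Nppa encodes atrial natriuretic peptide and Nppb brain natriuretic peptide. Both act on the guanylyl cyclase receptor encoded by Npr1, which makes cyclic GMP and so relaxes vessels and promotes salt excretion, while C-type natriuretic peptide, from Nppc, acts on the cyclase encoded by Npr2. The receptor encoded by Npr3 has no cyclase and clears the peptides from the circulation. Corin is a cardiomyocyte surface protease that cuts the precursor of atrial natriuretic peptide into the active hormone, and furin is a protease of the secretory pathway that can cut the precursor of brain natriuretic peptide. In the adult heart Nppa is made mainly in the atria, and ventricular Nppa and Nppb are commonly used as markers of pressure load.

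Nppa and Nppb are neighbours on the same strand. Their promoters are shown because these genes had the largest fitted differences of the 8, and because TFEB is known to bind an E-box within its target promoters. The sequences are the 250 bases before each RefSeq start on the + strand of GRCm38.p6, for Nppb at chr4:147985650-147985899 and for Nppa at chr4:148000472-148000721. Capitals mark GATAA (bound by GATA factors), AAGTG (Nkx2-5), CATTCC (the MCAT element of TEAD factors) and TATAAA (the TATA box), each searched on both strands, so that a match on the opposite strand reads as its reverse complement.
Nppa: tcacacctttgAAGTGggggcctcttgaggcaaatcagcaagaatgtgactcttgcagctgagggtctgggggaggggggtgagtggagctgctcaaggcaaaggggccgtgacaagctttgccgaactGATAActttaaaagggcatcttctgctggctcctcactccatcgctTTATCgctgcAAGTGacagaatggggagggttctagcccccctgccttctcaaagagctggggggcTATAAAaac
Nppb: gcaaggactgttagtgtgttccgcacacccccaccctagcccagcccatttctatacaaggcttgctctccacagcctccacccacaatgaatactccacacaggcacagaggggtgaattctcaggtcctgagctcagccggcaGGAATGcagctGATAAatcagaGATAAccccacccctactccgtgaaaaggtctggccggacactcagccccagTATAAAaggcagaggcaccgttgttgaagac

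Both promoters hold 2 GATAA matches and 1 TATAAA. Nppa has 2 AAGTG matches and no CATTCC, while Nppb has 1 CATTCC, on the opposite strand, and no AAGTG. Of 32851 mouse promoters of the same length, 22.6% hold GATAA, 40.7% AAGTG, 12.6% CATTCC and 12.4% TATAAA. The E-box core CACGTG of the lysosomal CLEAR element is in 6.02% of these promoters. Among the 9 starts listed for the 8 genes it was in 0, which says only that these letters are not in these windows.

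Libraries held 12946878 to 16347388 counts. Levels are CPM, a gene's count divided by the library's total and its scaling factor (TMM), and multiplied by 1e+06. The total is that of the genes that passed the filter. Tests used edgeR's quasi-likelihood model over all 16 libraries with Benjamini-Hochberg adjustment over all tested genes. A gene was called at an adjusted p under 0.05. Tfeb, whose reads check the genotype labels, was at 30.9 to 40.1 CPM in WT sham and 20.6 to 40.0 in WT TAC, against 9.12 to 13.0 in the sham and 9.37 to 14.7 in the TAC libraries of cKO. Markers of atrial muscle differed widely between libraries, with the most in WT sham replicate 3, then in WT TAC replicate 4. Myl7, the atrial regulatory light chain of myosin, had 12, 1236, 11792 and 613 counts in WT sham replicates 1 to 4, and 2, 0, 72 and 5636 in the WT TAC replicates. It had 0, 52, 4 and 3 counts in cKO sham and 0, 0, 0 and 4 in cKO TAC. The summed level of 12 atrial marker genes was 214 to 3112 CPM in WT sham, 169 to 1226 in WT TAC, and in cKO it was 158 to 204 after sham surgery and 168 to 264 after TAC, and no marker of the list was at 0 in all libraries of a group. The results on Nppa, Nppb and Corin are therefore given with and without WT sham replicate 3, and the part of atrial transcripts in the other results was not tested.

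**Figure D1:**
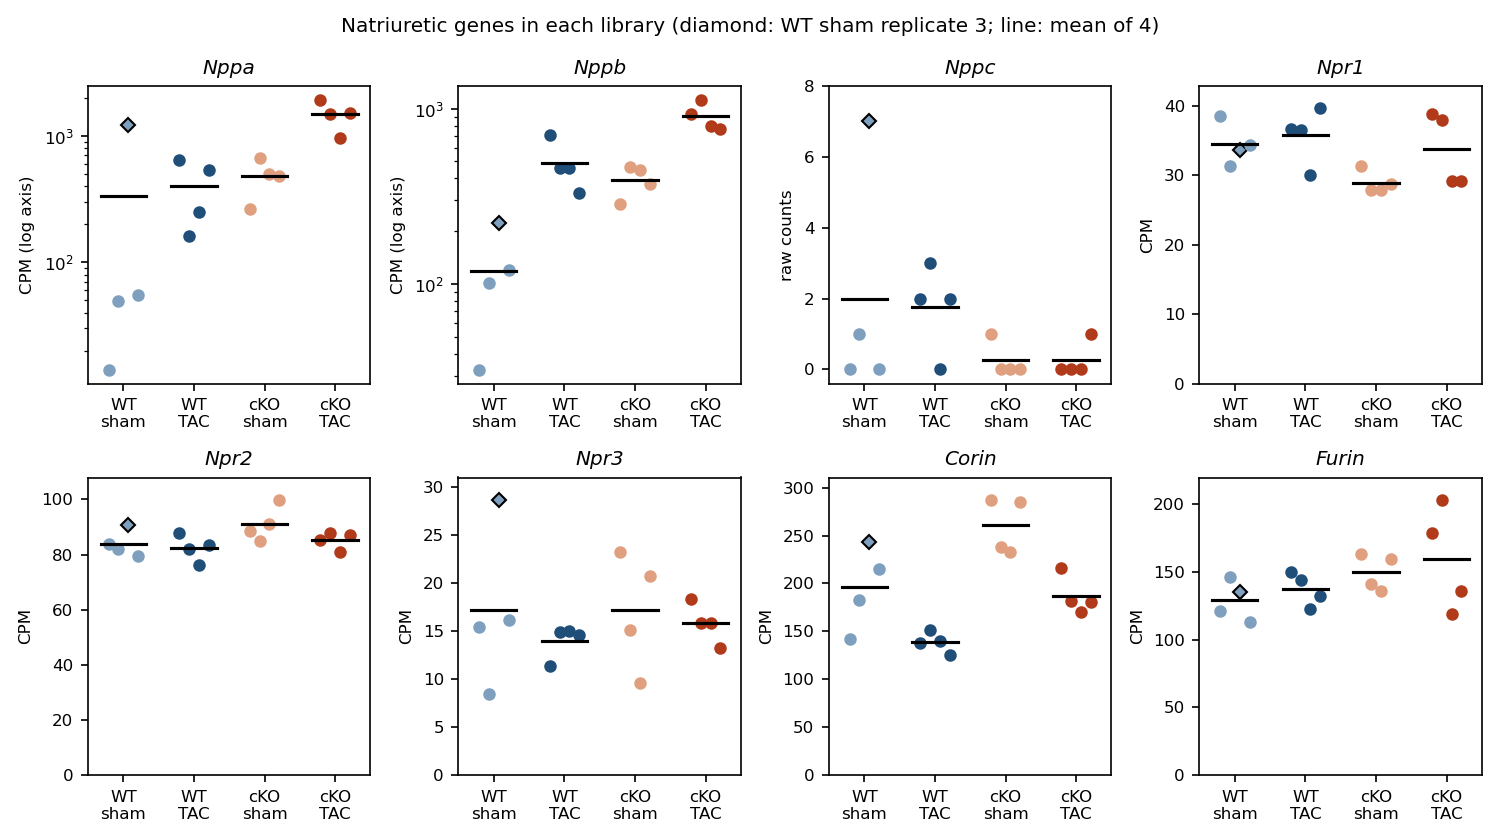
Level of the 8 genes in each library (CPM on a log axis for Nppa and Nppb, CPM from 0 for the others, raw counts for Nppc), by group, with WT sham replicate 3 as a diamond and the group mean of 4 as a line. Nppa in that replicate is at 1221 CPM against 14.1 to 54.8 in the other WT sham libraries, and all 4 cKO TAC libraries lie above all cKO sham libraries for Nppa and Nppb.

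Compared per kilobase of exon, Nppa and Nppb stood above the receptors in every library of WT TAC and of both cKO groups, while Nppc had the lowest mean of the 8 genes in every group. In WT sham the lowest Nppa library lay below all 4 libraries of Npr2 on this scale. In cKO TAC the mean levels per kilobase were 1703 CPM for Nppa and 1158 for Nppb, then 34.7 for Corin, 18.3 for Npr2, 17.3 for Furin, 7.07 for Npr1 and 1.68 for Npr3. The libraries of Nppa and Nppb overlapped in this group, as did those of Npr2 and Furin, and the other neighbours in the order did not overlap. In WT TAC the order of the peptides was the other way, with 625 CPM per kilobase for Nppb and 459 for Nppa, again with overlap.

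Nppb was the peptide gene with the clearest response to pressure load, and after either surgery its cKO libraries all lay above its WT libraries. Its levels in WT sham were 32.4, 101, 223 and 120 CPM in replicates 1 to 4. In WT TAC they were 707, 459, 457 and 329 CPM. The groups did not overlap: the lowest TAC library was above the highest sham library. The fitted rise was 4.10-fold (log2 2.03, SE 0.43, n = 4 and 4, edgeR adjusted p = 0.00687). A fit of the WT groups alone gave the same size with an adjusted p of 0.0522, and without WT sham replicate 3 the rise was 5.78-fold (SE 0.39 on the log2 scale, adjusted p = 0.00131).

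In cKO sham Nppb was at 284, 462, 450 and 373 CPM, a range that overlaps WT TAC and lies above every WT sham library. In cKO TAC it was at 927, 1126, 794 and 769 CPM, above every library of the other 3 groups. TAC raised it 2.30-fold in cKO (SE 0.42 on the log2 scale, edgeR adjusted p = 0.0468), close to the threshold: 12 of the 16 fits that left out 1 library lost the call, with adjusted p up to 0.118, as did the fit without the filter on low counts (adjusted p = 0.117). Without WT sham replicate 3 the SE of this 2.30-fold rise was 0.33, and the rise passed (edgeR adjusted p = 0.0184). In bulk tissue a change in the number of cells that make a transcript and a change in its amount per cell cannot be told apart.

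Between genotypes Nppb was 3.29-fold higher in cKO sham than in WT sham (log2 1.72, SE 0.42), with no overlap, but did not pass (edgeR adjusted p = 0.0724). Without WT sham replicate 3 the difference was 4.64-fold (log2 2.22, SE 0.39) and passed (adjusted p = 0.0157), and it also passed without WT sham replicate 1 (log2 1.41, adjusted p = 0.0478), with the DESeq2 Wald test (adjusted p = 0.00207) and with limma voom (adjusted p = 0.018). Under TAC the excess was 1.85-fold (log2 0.89, SE 0.41), again with no overlap and not past the threshold (edgeR adjusted p = 0.288). Without WT sham replicate 3 this excess was of the same size and also missed the threshold (SE 0.33, edgeR adjusted p = 0.186). The TAC response of Nppb in cKO minus that in WT was -0.83 on the log2 scale (SE 0.58, edgeR adjusted p = 0.955), so the smaller fold in cKO, which began from a higher level, was not shown to differ from that in WT. The 95% intervals of the responses were 1.11 to 2.96 in WT and 0.31 to 2.10 in cKO on the log2 scale, and that of their difference was -2.08 to 0.42. Without WT sham replicate 3 the difference was -1.33 (SE 0.49, 95% interval -2.39 to -0.26). It had an edgeR unadjusted p of 0.0186 and did not pass (adjusted p = 0.988).

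Nppa had the widest spread of the 7 tested genes, and what it showed depended on WT sham replicate 3. WT sham libraries held 14.1, 49.1, 1221 and 54.8 CPM. The third replicate was above all WT TAC libraries, which held 642, 162, 250 and 533 CPM, while the other 3 were below all of them. With all libraries the WT response to TAC was therefore 1.19-fold with a wide error (log2 0.25, SE 1.04, edgeR adjusted p = 0.903). Without that replicate Nppa rose 10.1-fold (log2 3.33, SE 0.60, adjusted p = 0.00377), and the groups did not overlap. WT TAC replicate 4, with 5636 counts of Myl7, stayed in that fit. Without both libraries the rise was 8.93-fold (log2 3.16, SE 0.62, edgeR adjusted p = 0.00762).

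In cKO sham Nppa was at 261, 671, 496 and 481 CPM. In cKO TAC it was at 1933, 1490, 960 and 1509 CPM, with no overlap between both surgeries. The fitted difference was 3.09-fold (log2 1.63, SE 1.07) and did not pass over all 16 libraries (edgeR adjusted p = 0.292). WT sham replicate 3 takes no part in this contrast, yet it enters the shared estimate of the spread: without it the same 3.09-fold difference had an SE of 0.49 and passed (adjusted p = 0.0289), and a fit of the cKO groups alone gave an adjusted p of 0.00414.

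Between genotypes under sham surgery, every cKO library had more Nppa than WT sham replicates 1, 2 and 4, and less than replicate 3. The difference was 1.42-fold with all libraries (log2 0.51, SE 1.04, edgeR adjusted p = 0.873) and 12.1-fold without replicate 3 (log2 3.60, SE 0.61, adjusted p = 0.0153). Under TAC all 4 cKO libraries were above all 4 WT libraries, by 3.71-fold (log2 1.89, SE 1.07, edgeR adjusted p = 0.404), and without WT sham replicate 3 this difference was of the same size and still missed the threshold (adjusted p = 0.0726). The difference of the TAC responses turned its sign: it was 1.38 (SE 1.48, edgeR adjusted p = 0.961) with all libraries and -1.71 (SE 0.73, unadjusted p = 0.036, adjusted p = 0.988) without that replicate.

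**Figure D2:**
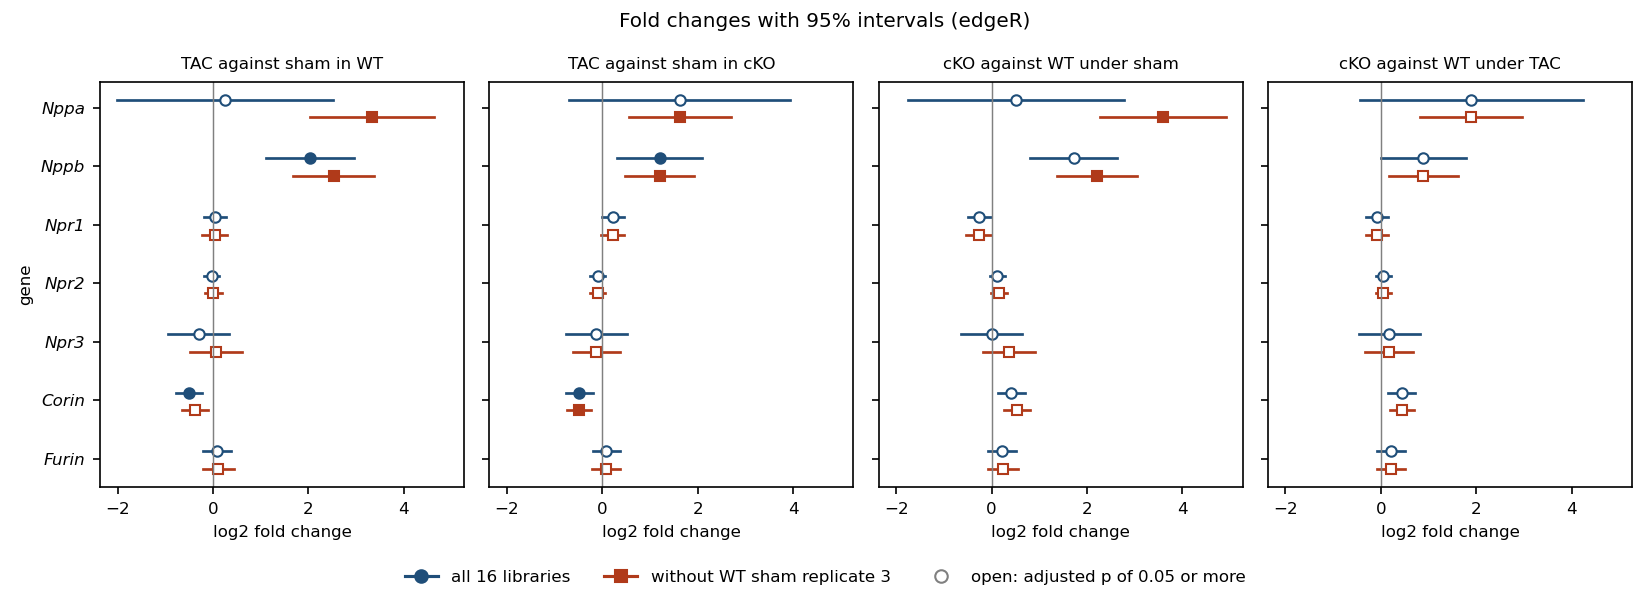
Log2 fold changes with 95% intervals for the 7 tested genes in 4 comparisons, from all 16 libraries (circles) and without WT sham replicate 3 (squares), filled where the adjusted p is under 0.05. Nppa in WT under TAC moves from 0.25 to 3.33 and Npr3 from -0.30 to 0.06, while Npr1, Npr2 and Furin stay near 0 there.

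Of the listed atrial markers, Myl7, Sln and Myl4 moved with Nppa in WT sham replicate 3. Kcna5 did not, and was at 38.2 to 65.9 CPM in the rest of the group and 34.4 CPM in replicate 3. That library had 871 CPM of Myl7 and 4475 counts of Sln, the atrial calcium pump regulator sarcolipin, against at most 92.3 CPM and 274 counts in the other WT sham libraries. Its ratio of Nppb to Nppa counts was 0.183, where the other WT sham libraries had 2.30, 2.06 and 2.18. WT TAC replicate 4, the library with the next highest Myl7 at 329 CPM, had a ratio of 0.616 against 1.101, 2.83 and 1.83 in its group. In the cKO libraries Myl7 was at most 3.36 CPM and Sln at most 48 counts, and the ratio ran from 0.689 to 1.09 in sham and from 0.480 to 0.827 in TAC; the high Nppa of cKO TAC thus stood in libraries with at most 4 counts of Myl7. With the summed level of Myl4, Myl7, Sln and Bmp10 as a covariate, the Nppa differences were 3.50 in WT under TAC and 3.801 between genotypes under sham on the log2 scale, with SE of 1.47 and 1.44 and edgeR adjusted p of 0.123 and 0.217.

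**Figure D3:**
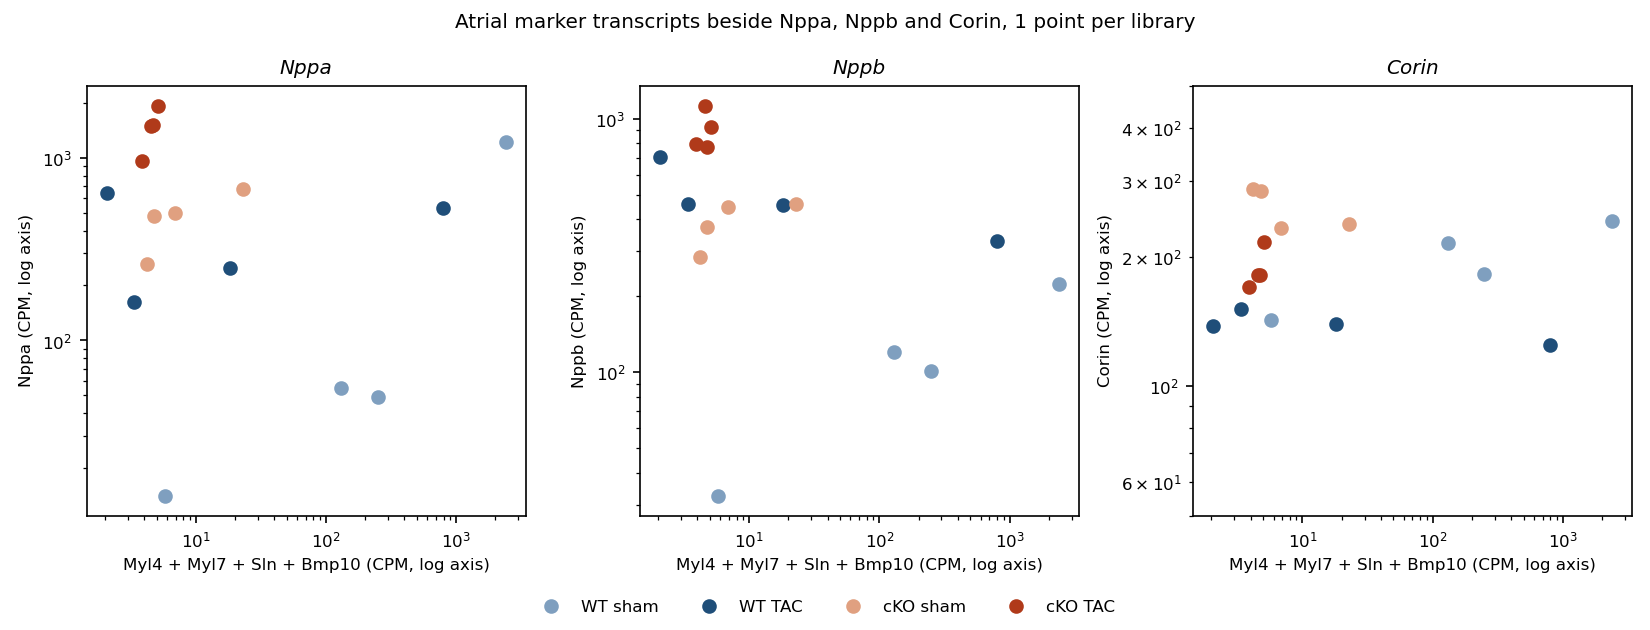
Nppa, Nppb and Corin (CPM, log axes) against the summed CPM of 4 atrial muscle genes (log axis), 1 point per library, coloured by group. WT sham replicate 3 lies at the far right with high Nppa, and the cKO TAC libraries, which have the highest Nppb, lie between 3.88 and 5.11 CPM of atrial genes, a range that also holds 2 cKO sham libraries.

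An alternative chosen after seeing the data left out the 4 libraries with more than 10 CPM of Myl7, which are WT sham replicates 2 to 4 and WT TAC replicate 4. WT sham is then 1 library, assumed to vary like the others. The Nppb response in cKO minus that in WT was then -2.86 (SE 0.40) and passed (edgeR adjusted p = 0.0279). That value rests on WT sham replicate 1, the library with the least Nppb (32.4 CPM) and Nppa (14.1 CPM) of its group. Leaving out only WT sham replicate 3 and WT TAC replicate 4 gave -1.48 for Nppb (SE 0.49, adjusted p = 0.794).

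Nppc was hardly detected. It had 17 counts in 7 of the 16 libraries: 8 in WT sham, 7 of them in replicate 3, then 7 in WT TAC and 1 in each cKO group. Pooled over a group, and here by library totals without TMM factors, these are 0.142 CPM in WT sham (exact 95% Poisson interval 0.0611 to 0.279, counting error only). In cKO sham the pooled level was 0.0163 CPM (0.00041 to 0.0906). No difference was tested at this depth.

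No receptor gene was called in any comparison with TMM scaling. With library totals Npr1 was called for TAC in cKO (log2 0.42, edgeR adjusted p = 0.0170), which is 0.22 relative to the median of all genes on that scale. Npr1 was at 38.6, 31.4, 33.7 and 34.4 CPM in WT sham and at 31.3, 28.0, 27.8 and 28.7 in cKO sham, so every cKO sham library was below every WT sham library. This difference of 0.838-fold (log2 -0.25, SE 0.11) did not pass (edgeR adjusted p = 0.285). Under TAC, Npr1 lay between 30.1 and 39.7 CPM in WT and between 29.3 and 38.8 in cKO, with overlap. Npr2 lay between 76.0 and 100 CPM in all 16 libraries, and its largest fitted difference in the 4 comparisons was 1.09-fold, between the genotypes under sham (log2 0.12, 95% interval -0.04 to 0.28).

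Npr3, the clearance receptor, was the least abundant receptor and its groups overlapped in every comparison. It was at 15.4, 8.43, 28.7 and 16.1 CPM in WT sham and at 11.3, 14.9, 15.0 and 14.5 in WT TAC. In cKO it was at 23.2, 15.1, 9.53 and 20.8 CPM under sham and at 18.3, 15.8, 15.8 and 13.2 under TAC. The highest value was again in WT sham replicate 3, where the ratio of Npr3 to Npr1 counts was 0.851, against 0.400, 0.268 and 0.467 in its group. The WT difference of 0.812-fold under TAC (log2 -0.30, SE 0.30, edgeR adjusted p = 0.535) became 1.05-fold without that library.

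Corin was called lower after TAC in both genotypes over all 16 libraries, but only the call in cKO held without each library in turn. Its means were higher in cKO than in WT after either surgery. WT sham libraries held 142, 182, 243 and 215 CPM, and WT TAC libraries 138, 152, 140 and 125 CPM, with overlap only through WT sham replicate 1. The fall was to 0.708-fold (log2 -0.50, SE 0.13, edgeR adjusted p = 0.0172). It missed the threshold without WT sham replicate 3 (log2 -0.38, adjusted p = 0.0549) and without WT sham replicate 4 (adjusted p = 0.0528). The same held without WT sham replicate 3 and WT TAC replicate 4 together (log2 -0.33, edgeR adjusted p = 0.121). With the single WT sham library of lowest Myl7 in the comparison above, the difference was 0.01. In cKO, Corin was at 288, 238, 233 and 285 CPM under sham and at 216, 181, 170 and 181 CPM under TAC, with no overlap, and fell to 0.718-fold (log2 -0.48, SE 0.13, edgeR adjusted p = 0.0132), a call that held without each library in turn.

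Scaling by library totals in place of TMM factors moved the median of all genes by 0.12 on the log2 scale for TAC in WT and by 0.19 in cKO. Corin then changed by -0.38 in WT and -0.28 in cKO and missed the threshold in both (edgeR adjusted p = 0.0877 and 0.160), but relative to that median it was still lower, by -0.49 and -0.48. The summed level of 10 ventricular muscle markers was 60451 to 75665 CPM in WT sham and 49546 to 60877 in WT TAC, and 58326 to 67759 in cKO sham and 34618 to 52590 in cKO TAC. Of these 10 genes, 2 fell in WT, where 6.14% of all genes did, and 7 in cKO, where 12.4% did, and their part in the lower Corin was not tested.

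Between genotypes Corin was 1.33-fold higher in cKO sham (log2 0.41, SE 0.13, edgeR adjusted p = 0.132) and 1.35-fold higher in cKO TAC, where the groups did not overlap (log2 0.43, SE 0.13, edgeR adjusted p = 0.0922). Neither passed, nor did they without WT sham replicate 3 (adjusted p = 0.0526 and 0.0701). The difference under TAC passed with the DESeq2 Wald test (adjusted p = 0.0462), without the filter on low counts (adjusted p = 0.0481) and without WT sham replicate 1 (adjusted p = 0.0357). Furin was at 113 to 146 CPM in WT sham and 123 to 150 after TAC, and in cKO at 136 to 163 and 119 to 203. All these ranges overlapped, and its fitted differences ran from 1.06-fold to 1.16-fold with no call.

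**Figure D4:**
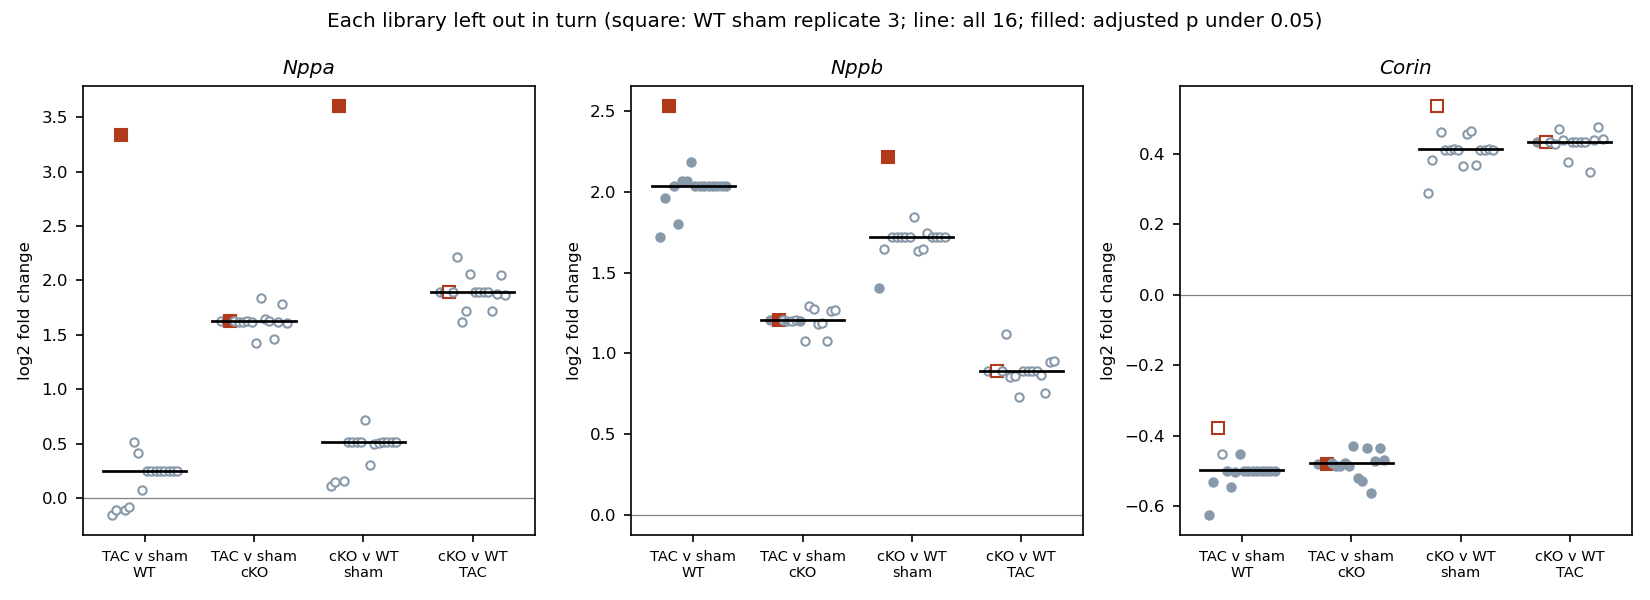
Log2 fold change of Nppa, Nppb and Corin in 4 comparisons with each of the 16 libraries left out in turn (points), with WT sham replicate 3 left out as a square, all 16 libraries as a line, and filled points for an adjusted p under 0.05. For Nppa only the square stands apart, at 3.33 in WT under TAC and 3.60 between genotypes under sham, and for Corin in cKO under TAC every point is filled.

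Over the 7 tested genes, 2 were called for TAC in WT, where 15.8% of all tested genes were called. Nppb was the 1 that rose (9.7% of all genes did) and Corin the 1 that fell (6.14%), and both also had an unadjusted p under 0.05 (31.3% of all genes). The groups did not overlap for 1 of the 7, against 19.5% of all genes. For TAC in cKO 2 were called, the same genes in the same directions, where 26.5% of all genes were called, 14.2% higher and 12.4% lower, and 38.3% had an unadjusted p under 0.05. There 3 of the 7 did not overlap, against 29.3%.

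Between genotypes edgeR called 0 of 7 under sham (1.17% of all genes) and 0 of 7 under TAC (1.78%). Under sham 3 had an unadjusted p under 0.05 (15% of all genes) and 2 did not overlap (7.59%). Under TAC 2 had an unadjusted p under 0.05 (17.4%) and 3 did not overlap (10%). With the DESeq2 Wald test 1 was called in each, Nppb under sham (3.59% of all genes) and Corin under TAC (5.43%), and with limma voom 1 under sham (1.2%) and 0 under TAC (2.14%). Without WT sham replicate 3, Nppa and Nppb were called between genotypes under sham, where 1.37% of all genes were. The difference of the TAC responses was called for 0 of 7 genes and for 0 of all 15206 tested genes (0%) by edgeR, with 0 of 7 and 715 of all genes (4.7%) at an unadjusted p under 0.05. DESeq2 called 0 of the 7 and 3 of all genes (0.0197%), and limma voom 0 of all genes. Median log2 changes of the 7 genes were 0.05, 0.09, 0.22 and 0.21 in the 4 comparisons of 2 groups, against -0.01, 0.0034, -0.01 and 0.0044 over all genes. The comparisons share groups, so their values are not independent of each other.

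Around the peptide genes, Clcn6 lies beside Nppa, and Plod1 lies on the side of Nppb. Clcn6, a chloride and proton exchanger of endosomes, was at 14.1 CPM in WT sham and 13.4 in WT TAC, and at 13.8 and 16.0 CPM in the cKO groups, and was not called in any comparison. Plod1, a collagen lysyl hydroxylase, rose in WT under TAC from 117 to 155 CPM (log2 0.40, SE 0.10, adjusted p = 0.0111). Gm13054, annotated antisense and overlapping Nppa, had 0 to 46 counts, the highest in WT sham replicate 3. The strand setting of the counting is not given in the sources used here, so its reads and those of Nppa cannot be told apart.

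Other genes of the fetal programme of loaded ventricle are given for comparison. Myh7, the slow myosin heavy chain, rose from 352 to 1229 CPM in WT under TAC (log2 1.81, SE 0.28, edgeR adjusted p = 0.000703) and from 612 to 2629 in cKO (log2 2.10, SE 0.29, adjusted p = 0.000155). Acta1, skeletal alpha-actin, rose in WT from 442 to 4496 CPM (log2 3.35, SE 0.75, adjusted p = 0.0107), and in cKO was at 1818 and 5119 CPM (adjusted p = 0.138). Myh6, the fast adult heavy chain, fell in cKO from 29366 to 20131 CPM (log2 -0.54, SE 0.13, adjusted p = 0.00646) and was at 28418 and 24351 CPM in WT (adjusted p = 0.273). None of these 3 genes passed between genotypes with edgeR over all libraries. Acta1 under sham passed with the DESeq2 Wald test (adjusted p = 0.0498) and with limma voom (adjusted p = 0.0398). Myh7 under TAC passed with both (adjusted p = 0.00241 and 0.0366), with the replicate block (edgeR adjusted p = 0.0263), and without WT TAC replicate 1 or cKO TAC replicate 3 (edgeR adjusted p = 0.0104 and 0.0118).

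Likeness of pattern was measured over 10122 genes of at least 5 CPM as the root mean square difference of log2 CPM over the 16 libraries, each gene centred on its mean. Nearest to Nppb were Ankrd1 (0.43), a stretch-responsive titin-binding protein, Fstl3 (0.45), a secreted activin antagonist, and Nlrc3 (0.58). The SD of Nppb itself over the libraries was 1.34. Nearest to Nppa were Lrp8 (1.06), a lipoprotein receptor, Ccn2 (1.17), connective tissue growth factor, and Ankrd1 (1.19), against an SD of 2.02; over the 15 libraries without WT sham replicate 3 the nearest were Ccn2 (0.94) and Tent5b (0.98). Corin was closest to Zfp970 (0.19), Tecrl (0.20) and Kcnj12 (0.20), with an SD of 0.38. Npr3 was closest to Trpc1 (0.29), Psd3 (0.31) and Nr2f2 (0.31), with an SD of 0.44. These distances describe the same libraries and carry no test.

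The wider pathway was read from 3 lists with 63 genes, of which 59 were tested. In WT under TAC 3 rose and 8 fell, where 9.7% and 6.14% of all genes did. In cKO under TAC 7 rose and 7 fell, where 14.2% and 12.4% of all genes did. Between genotypes 1 fell under sham, where 0.552% of all genes did, and 0 passed under TAC, and 0 passed for the difference of the responses (edgeR; the shares of all genes called are those given above).

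Of 11 tested genes of peptide processing and breakdown, 0 rose and 1 fell in WT under TAC (9.7% and 6.14% of all genes). The list median was 0.07 on the log2 scale. In 6 of the 16 fits without 1 library 2 were called, and over the 16 fits 8% to 16.1% of all genes were. The gene that fell was Spint2, an inhibitor of membrane serine proteases, from 33.8 to 22.1 CPM (0.654-fold, SE 0.12 on the log2 scale, edgeR adjusted p = 0.00231). It also fell in cKO, from 30.0 to 19.8 CPM (0.659-fold, adjusted p = 0.00149), where Pcsk5, a proprotein convertase, rose from 3.32 to 8.94 CPM (2.68-fold, adjusted p = 0.00116) and Fap, a fibroblast peptidase, from 3.30 to 7.11 CPM (2.15-fold, adjusted p = 0.00156). Markers of fibroblasts stood higher beside them, with 5 of 8 risen and 1 fallen in cKO under TAC (14.2% and 12.4% of all genes) and a summed level of 2077 to 2955 CPM in cKO sham and 3068 to 4554 in cKO TAC; their part was not tested. Between genotypes 0 of 11 passed. The smallest p under sham was that of Mme, neprilysin, which degrades the peptides, at 10.4 CPM in WT and 5.86 in cKO (log2 -0.83, SE 0.25, adjusted p = 0.109). Under TAC it was that of Pcsk6, a convertase known to activate corin, at 64.7 CPM in WT and 80.9 in cKO (log2 0.32, SE 0.09, adjusted p = 0.0703).

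Of 23 tested genes that make, sense or break down cyclic GMP, 3 rose and 3 fell in WT under TAC (9.7% and 6.14% of all genes). In cKO 3 rose and 5 fell (14.2% and 12.4% of all genes). The 6 calls in WT became 3 without WT sham replicate 2 or WT TAC replicate 1. The share of all genes called there was 13.7% and 8%, against 15.8% over all libraries. Vasp, a cytoskeletal substrate of cyclic GMP-dependent kinase, rose in both, from 43.0 to 61.3 CPM in WT (1.43-fold, edgeR adjusted p = 0.00107) and from 37.7 to 54.2 in cKO (1.44-fold, adjusted p = 0.000531). Rgs2, a brake on Gq signalling that this kinase can activate, fell in both, from 57.4 to 23.8 CPM (0.416-fold, adjusted p = 0.00161) and from 61.0 to 27.6 (0.452-fold, adjusted p = 0.00161). Pde3a, a phosphodiesterase inhibited by cyclic GMP, fell in WT from 106 to 70.0 CPM (0.660-fold, adjusted p = 0.00294), and Pln, phospholamban, fell in cKO from 1481 to 815 CPM (0.550-fold, adjusted p = 0.0013). Between genotypes 0 of 23 passed, and Pde1a had the smallest p in both, with 5.45 against 8.67 CPM under sham (log2 0.67, SE 0.19, adjusted p = 0.0889) and 7.77 against 12.6 under TAC (log2 0.69, SE 0.18, adjusted p = 0.0531).

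**Figure D5:**
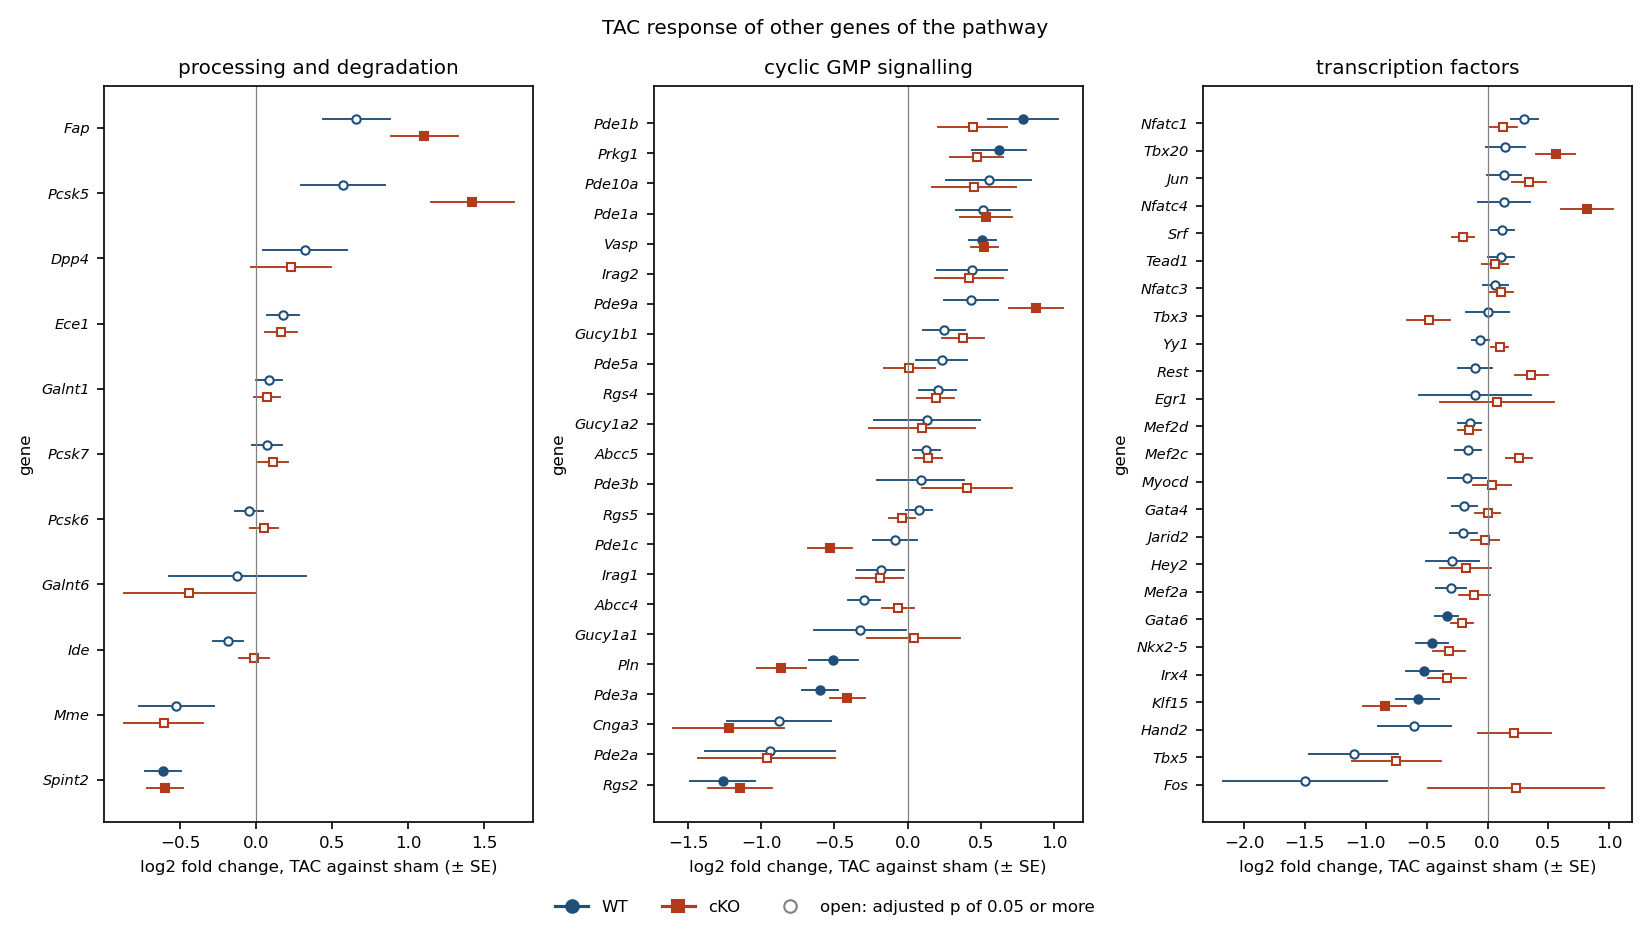
Log2 fold change (± SE) under TAC of the 59 tested genes of the pathway in 3 lists, in WT (circles) and cKO (squares), filled where the adjusted p is under 0.05. Rgs2, Pln and Spint2 lie to the left of 0 and Vasp to the right in both genotypes.

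All 25 listed transcription factors known to act at the Nppa and Nppb genes were tested. In WT under TAC 0 rose and 4 fell, where 9.7% and 6.14% of all genes did. The 4 were Gata6 (0.792-fold, edgeR adjusted p = 0.0188), Nkx2-5 (0.729-fold, adjusted p = 0.0245), Irx4 (0.698-fold, adjusted p = 0.0275) and Klf15 (0.672-fold, adjusted p = 0.037). The 4 calls became 1 without WT TAC replicate 1 and 2 without WT sham replicate 1 or 4 or WT TAC replicate 2 or 3. Of all genes 15.8% were called over all libraries, 8% without WT TAC replicate 1 and 10.9% to 13.9% in those other fits. Gata6, Nkx2-5 and Irx4 also missed the threshold with library totals (edgeR adjusted p = 0.158, 0.0780 and 0.0655). Klf15, known as a repressor of the hypertrophic programme, is the fourth and was named after its value was seen. In cKO under TAC 2 rose, Nfatc4 from 8.00 to 14.1 CPM (1.76-fold, adjusted p = 0.00862) and Tbx20 from 100 to 148 CPM (1.47-fold, adjusted p = 0.0161), and Klf15 fell from 79.5 to 44.3 CPM (0.557-fold, adjusted p = 0.00253). Of all genes 14.2% rose and 12.4% fell there. These 3 calls became 5 without WT sham replicate 1 or 4 or cKO sham replicate 2, and 8 with library totals. The share of all genes called was 26.5% over all libraries, 30%, 26% and 26.8% in these fits in turn, and 32.2% with library totals. Under sham Jarid2, a chromatin factor known to repress Nppa, was lower in cKO, at 30.1 CPM in WT and 21.4 in cKO with no overlap (0.709-fold, log2 -0.50, SE 0.11, edgeR adjusted p = 0.0357). That call was lost without WT sham replicate 4, WT TAC replicate 3 or cKO sham replicates 2, 3 or 4 (adjusted p up to 0.130), with library totals (0.0685), with the compared groups alone (0.0945) and with the atrial covariate (0.112). Under TAC it was at 26.3 and 21.1 CPM (log2 -0.32, SE 0.11, adjusted p = 0.144), the smallest p of the list there. For the difference of the TAC responses the smallest p of the 3 lists were those of Pcsk5 (log2 0.85, SE 0.39), Pde1c (log2 -0.44, SE 0.21) and Mef2c (log2 0.42, SE 0.15), each with an edgeR adjusted p of 0.946.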

How the data were processed

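The values were the authors' deposited raw counts, by Ensembl gene, for 16 left ventricular libraries sequenced as paired ends. Counting by featureCounts 2.0.6 and alignment tools HISAT2 2.0.5 and SAMtools 1.21 are listed in the submitters' processing notes, with fastp 0.22.0, FastQC and the build GRCm39; strandedness and the annotation release are not given in the sources used here. Totals were 12946878 to 16347388 counts per library.

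Genes were kept by filterByExpr (15206 of 57186), scaled by TMM and fitted in edgeR 4.0.16 (R 4.3.3), robust quasi-likelihood, with 1 mean per group over all 16 libraries, 12 residual degrees of freedom and a biological coefficient of variation of 16.5%. CPM values and fold changes both use the totals of the kept genes scaled by TMM factors, from 0.908 in WT sham replicate 1 to 1.14 in cKO TAC replicate 1. Only the pooled Nppc levels use library totals alone. The SE came from the F statistic, and intervals are 95%. The labels call replicates biological, 4 per group. The model was tested on counts simulated for all 16 libraries from each gene's mean level and spread, with changes planted only in WT TAC. For TAC against sham in WT, over 15046 genes, it called 38% of genes changed 1.5-fold and 98% of those changed 4-fold. Symbols, exon lengths and gene neighbours came from a GRCm38 annotation, and promoters from RefSeq, which held all 8 genes; Irag1 and Irag2 were matched as Mrvi1 and Lrmp.

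The 8 genes, the pathway and marker lists and the rule for named genes were chosen with earlier results of these data known. The rule names the 8 genes, up to 3 genes per list and comparison with the smallest adjusted p among those called (where none was called, the smallest p), the 3 genes most like Nppa, Nppb, Npr3 and Corin, their chromosome neighbours, and Tfeb, Myh6, Myh7 and Acta1. Alternatives were DESeq2 1.42.0 size factors, library totals, no filter on low counts, the DESeq2 Wald test, limma 3.58.1 voom, compared groups alone, a replicate block, an atrial covariate (log2 of summed CPM plus 1) and each library left out. A pair that left out several libraries was chosen after seeing the data. Some genes that the rule names are not reported here.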

Additional observations from a re-analysis of the deposited data

Results flagged for a closer look

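In a group of 4 libraries, a value was marked where the highest or lowest library stood apart from the nearest other by a larger share of the whole range than Dixon's 95% limit for 4 values. Of 28 groups, 7 genes in 4 groups each, 2 were marked, and chance marks about 1 in 20 groups. Nppa in WT sham replicate 3 was at 1221 CPM, with the nearest library of its group at 54.8. Npr3 in WT TAC replicate 1 was the lowest of its group at 11.3 CPM, with the nearest at 14.5.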

How the results depend on the processing

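Of the 7 tested genes, 2 were called for TAC in WT. This number became 1 with library totals, with the compared groups alone and with the atrial covariate. The gene that remained was Nppb, Corin and Nppb in turn, where 17.1%, 12.8% and 17.1% of all genes were called. For TAC in cKO the number went from 2 to 1, Corin, without the filter on low counts (10.6% of all genes) and with the replicate block (26.2%). It was 3 (Nppa, Nppb and Corin) with the compared groups alone (29.4%) and without WT sham replicate 3 and WT TAC replicate 4 (26.4%). Without the 4 libraries with most Myl7 the log2 changes were 1.63 for Nppa, 1.20 for Nppb and -0.48 for Corin. For cKO against WT under sham the number went from 0 to 1, Nppb, with the DESeq2 Wald test (3.59% of all genes) and with limma voom (1.2%). It was 2 without WT sham replicate 3 and WT TAC replicate 4 (1.3%). Without the 4 libraries with most Myl7, which left 1 WT sham library, the log2 differences were 5.09 for Nppa, 3.60 for Nppb and 0.88 for Corin. Under TAC the number went from 0 to 1, Corin, without the filter (1.35% of all genes) and with the DESeq2 Wald test (5.43%). The difference of the TAC responses of Nppb was -2.86 on the log2 scale without the 4 libraries with most Myl7. With each library left out the numbers called ran from 1 to 2, 1 to 3, 0 to 2 and 0 to 1 in the 4 comparisons of 2 groups. The shares of all genes called ran from 8% to 16.1%, 17.6% to 30%, 0.382% to 1.44% and 0.0841% to 5.91%.

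The replicate block took Nppb in cKO under TAC to an adjusted p of 0.0612. The numbers do not mark pairs by the labels, and the correlations of same-numbered libraries ran from -0.23 to 0.33. With the block 15.4%, 26.2%, 1.55% and 1.99% of all genes were called in the 4 comparisons.

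The values that turned their sign had an adjusted p over 0.05 with all libraries, except Corin for TAC in WT; the cause was not tested. With library totals these were, on the log2 scale, Npr2 (0.10) and Clcn6 (0.062) for TAC in WT, Npr2 (0.10) and Npr3 (0.064) for TAC in cKO, Gm13054 (-0.0051) and Clcn6 (0.0059) between genotypes under sham, Npr1 (0.012) under TAC, and Npr2 (0.00011) and Furin (0.068) for the difference of the responses. Npr3 between genotypes under sham was -0.0026 with DESeq2 size factors, -0.0035 with the DESeq2 Wald test and -0.00034 without the filter. For the difference of the responses, limma voom gave Nppa -0.39, Corin -0.0037 and Gm13054 -1.11, and the atrial covariate gave Nppa -1.54, Corin -0.048, Furin 0.0018 and Gm13054 -0.36.

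Without WT sham replicate 3 and WT TAC replicate 4, TAC in WT gave Npr1 -0.017, Npr2 0.0031 and Npr3 0.044, the genotypes gave Acta1 -0.022 under TAC, and the difference of the responses gave Nppa -1.53, Npr3 -0.17, Corin -0.15 and Gm13054 -1.86. Without the 4 libraries with most Myl7, TAC in WT gave Npr1 -0.16, Corin 0.0090 and Tfeb 0.040, Acta1 under TAC was -0.022, and the difference of the responses gave Nppa -3.02, Corin -0.49 and Gm13054 -5.88.

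With each library left out, results that turned their sign ranged as follows. TAC in WT gave Nppa -0.15 to 3.33, Npr1 -0.0048 to 0.13, Npr2 -0.065 to 0.010, Npr3 -0.53 to 0.065 and Gm13054 -0.24 to 3.00. TAC in cKO gave Npr3 -0.32 to 0.056 and Furin -0.062 to 0.20. Under sham the genotypes gave Npr3 -0.22 to 0.37, Gm13054 -0.39 to 2.85, Clcn6 -0.13 to 0.014 and Myh6 -0.0075 to 0.10, and under TAC Acta1 -0.033 to 0.56. The difference of the responses gave Nppa -1.71 to 1.78, Npr3 -0.19 to 0.40, Corin -0.10 to 0.15, Furin -0.15 to 0.11 and Gm13054 -2.09 to 1.14.

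Over all genes, library totals moved the split of calls from 1475 higher and 934 lower to 2170 and 432 for TAC in WT, from 2154 and 1880 to 4013 and 877 for TAC in cKO, and from 91 and 180 to 116 and 118 between genotypes under TAC. Calls between genotypes went from 178 under sham and 271 under TAC to 546 and 826 with the DESeq2 Wald test, to 110 and 654 with the atrial covariate, and under TAC to 438 without the filter, to 152 with the compared groups alone and to 165 without WT sham replicate 3 and WT TAC replicate 4. Without the 4 libraries with most Myl7, 1012 were called under sham. For the difference of the responses calls went from 0 to 3, 2 and 32 with the DESeq2 Wald test and these alternatives that leave out 2 and 4 libraries. With each library left out, calls ran from 1234 (without WT TAC replicate 1) to 2477 for TAC in WT and from 2720 to 4633 for TAC in cKO. Between genotypes they ran from 59 (without cKO sham replicate 4) to 222 under sham, with 79, 96 and 114 without WT sham replicate 4 and cKO sham replicates 2 and 1. Under TAC they were 13 and 20 without WT TAC replicates 2 and 3, 28, 20 and 39 without cKO TAC replicates 1, 2 and 4, 152 without cKO sham replicate 4, and 508, 522 and 912 without WT sham replicate 1, WT TAC replicate 1 and cKO TAC replicate 3. Nppc was too rare to test in groups of 4.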
